A study of Mus musculus with 70 samples.

Results

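Prrx1, Prrx2, Alx1, Alx4, Msx1 and Msx2 encode homeodomain transcription factors of the embryonic mesenchyme, and here their promoter contacts were followed through 7 fetal mouse tissues and 6 forebrain stages. The 6 genes were named by family and taken as a list from 20807 autosomal protein-coding genes. Their transcription start sites (TSSs) lay in 10 bins of 10 kb, and every deposited interaction with an end in one of these bins was assigned to them. This gave 194 distinct interactions of the 248620 in the pooled call sets.

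Homeodomain proteins of the Prrx, Alx and Msx families bind short AT-rich DNA motifs. They act in the loose mesenchyme that forms the skeleton and connective tissue of the limb bud and of the facial prominences. In mice, Prrx1 and Prrx2 are required together for normal limb and jaw skeletons, Alx1 and Alx4 pattern the frontonasal mesenchyme and Alx4 also the anterior limb bud. Msx1 and Msx2 are targets of BMP signalling in the facial prominences, tooth buds and limb tip, and both are also active in the dorsal midline of the neural tube. Genes of this kind are often flanked by wide noncoding regions that hold distal enhancers, so that the reach of the promoter is of interest.

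The contacts were measured by H3K4me3 PLAC-seq, in which proximity-ligated chromatin is immunoprecipitated for trimethylated lysine 4 of histone H3, a mark of active and poised promoters. At embryonic day 12.5 (E12.5), liver (LV in the plots), limb (LM), craniofacial prominence (CF, called face here), neural tube (NT), hindbrain (HB), midbrain (MB) and forebrain (FB) of C57BL/6N mice were taken as whole tissues, with 2 biological replicates each. Forebrain was also taken daily from E13.5 to E16.5 and at birth (P0), again with 2 replicates each, and CTCF ChIP-seq was performed in all 12 tissue–stage combinations. The CTCF libraries of liver and of forebrain at E14.5 are labelled technical replicates, and forebrain at P0 had a single CTCF library. None of the animals carried an allele or received a treatment that the labels name. All are mixtures of cell types, so that fewer cells of a type and less signal per cell cannot be told apart.

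An interaction is a pair of 10-kb bins whose read pairs exceeded the number expected from distance, sequence and enrichment by at least 2 times at a false discovery rate (FDR) below 1%. The 24 replicate libraries held 11396 to 63868 interactions each, and the 14 libraries at E12.5 held 11396 to 33700, with liver replicate 2 the lowest and limb replicate 1 next at 12461. The smallest read-pair count among the called pairs was 6 or 7 in every library except neural tube replicate 2, where it was 12. The pooled sets, made from both replicates and downsampled to equal depth, held between 51264 and 79677 interactions, except that of liver with 21945. A pair without a call has no value in these files, and a pair with no H3K4me3 peak at either end in its tissue was not tested by the authors. Neighbouring bins along a stretch of contact are not independent of each other.

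Prrx1 encodes the paired-related homeobox factor PRRX1 and marks limb and facial mesenchyme. It had the most pooled interactions of the 6 genes in limb and in face. Its gene body spans chr1:163245119-163313710 on the minus strand (mm10), and the main TSS lies in the bin from 163310001 to 163320000. The pooled limb set held 50 interactions of Prrx1 and the pooled face set 51. The pooled sets of the other tissues at E12.5 held 0 in forebrain, 3 in midbrain, 1 in hindbrain, 2 in neural tube and 0 in liver. Among single libraries, limb had 30 and 36 interactions, face had 17 and 22, and the other 10 at E12.5 had 0 each. No library of another tissue reached those of limb or face.

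The Prrx1 promoter is shown because a CTCF peak overlapped it in limb and face. The sequence is from RefSeq (GRCm38.p6, minus strand, chr1:163313601-163313900) and covers the 250 bases before the RefSeq start and the 50 after it, with CpG dinucleotides in capitals. It holds 6 CpGs, against a median of 7 over 32851 promoters of the same length.
Prrx1 promoter: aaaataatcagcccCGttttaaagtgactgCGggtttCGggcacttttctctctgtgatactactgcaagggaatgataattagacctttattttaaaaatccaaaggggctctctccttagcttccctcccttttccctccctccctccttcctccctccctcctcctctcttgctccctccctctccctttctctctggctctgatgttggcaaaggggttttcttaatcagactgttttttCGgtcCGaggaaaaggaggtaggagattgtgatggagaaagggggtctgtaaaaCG

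The Msx1 promoter (minus strand, chr5:37824536-37824835) is set beside it as an example of a CpG-rich promoter of the same group, with 29 CpGs.
Msx1 promoter: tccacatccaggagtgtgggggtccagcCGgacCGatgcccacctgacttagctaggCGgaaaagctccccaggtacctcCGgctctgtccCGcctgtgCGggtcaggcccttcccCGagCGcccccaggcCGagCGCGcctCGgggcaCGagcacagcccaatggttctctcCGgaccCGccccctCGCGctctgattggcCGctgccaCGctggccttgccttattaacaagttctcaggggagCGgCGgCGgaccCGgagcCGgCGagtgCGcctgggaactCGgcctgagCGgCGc
Msx2 and Prrx2 resembled Msx1 in this respect, with 22 and 28 CpGs. The homeodomain core TAATTA, searched on both strands, occurred 1 time in the Prrx1 and 1 time in the Msx2 window and not in those of Msx1 and Prrx2, and 5.29% of all promoters of this length held it. The related letters TAATTG were in none of the 4 windows and in 8.0% of all promoters.

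**Figure D1:**
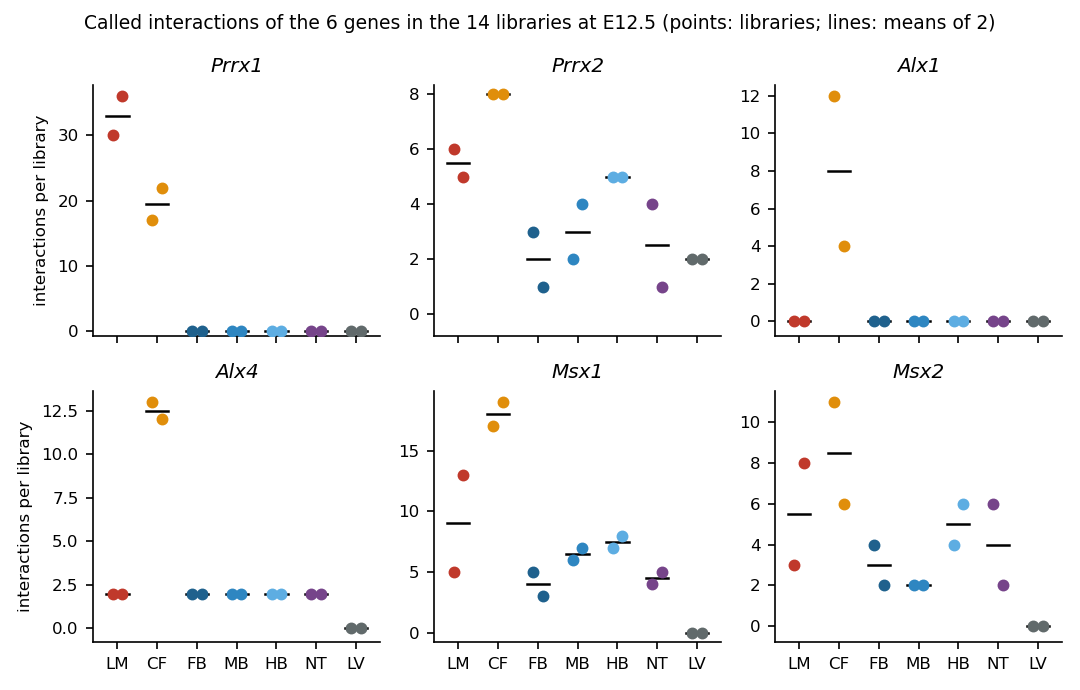
Number of called interactions (y axis) of each of the 6 genes in the 14 replicate libraries at E12.5, by tissue (x axis); points are libraries and lines the means of 2. Prrx1 reached 17 to 36 in limb and face and was at 0 elsewhere, Alx1 was at 0 outside face, and Alx4 reached 12 and 13 in face against 2 in each limb library.

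To compare tissues, the number of interactions per gene and library was scaled to the median library total. It was tested with limma on the log2(scaled number + 1) scale, with Benjamini-Hochberg adjustment over 4725 genes. A gene without a call in a library entered as 0, also where its pairs may not have been tested by the authors. In limb and face against the 5 other tissues, 608 of 4725 genes (12.9%) were higher and 732 (15.5%) lower, with a median difference over all genes of -0.08. The higher genes were 45.4% of those called, against 27.2% without scaling, where the median of all genes was -0.28, and 37.7% with TMM scaling. With edgeR 484 genes were higher and 180 lower, and with DESeq2 242 and 73, so that the balance turned with the test. All 6 genes were among those higher. Prrx1 had the largest difference of all genes tested, and 3 of the 6 (Prrx1, Prrx2 and Msx1) had every limb and face library above every other library on the scaled numbers, as did 175 of all genes (3.7%). Prrx1 and Alx1 passed the filter on low numbers through limb and face alone, so that both had to differ in that direction.

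For Prrx1 the fitted log2 difference was 4.91 ± 0.26 (SE, 4 libraries against 10), and no fold is given because the other libraries were at 0 (limma, adjusted p = 5.21e-08). Limb exceeded face by 0.93 ± 0.44 in log2, which did not pass the threshold (limma, adjusted p = 0.200), although both limb libraries lay above both face libraries. With edgeR's quasi-likelihood test it did (adjusted p = 0.0346).

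The partners of Prrx1 lay mainly upstream of the gene. Over all 12 pooled sets, 96 of its 112 calls were upstream and 16 downstream, at a median distance of 310 kb and up to 610 kb. Among the 6 genes, Alx4 had the farthest call, at 730 kb, and Prrx2 the largest median distance, 380 kb. In limb the 47 upstream calls of Prrx1 began 40 kb from the TSS bin. They reached, with gaps, to the bin that holds the TSS of Scyl3, a protein kinase-like gene, 610 kb away. The contact with the largest ratio joined Prrx1 to a bin 580 kb upstream, at chr1:163890001-163900000 in the body of Kifap3, which encodes a kinesin-associated protein. Limb had 75 read pairs there against 8.34 expected (ratio 8.99), and face had 34 against 5.52 (ratio 6.16). The pair was called in limb replicate 1 (24 read pairs, ratio 5.98), limb replicate 2 (36, ratio 6.03) and face replicate 2 (20, ratio 6.53). It was called in none of the 20 libraries of other tissues and stages. The pooled limb count exceeded those of the limb libraries together, and the reason was not tested.

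Within the stretch of limb calls lay the TSS bin of Mettl11b, which encodes an N-terminal methyltransferase. It was joined to Prrx1 at 410 kb with 42 read pairs in limb (ratio 4.35) and 28 in face (ratio 3.19). Downstream, the strongest partner lay 160 kb away at chr1:163150001-163160000, with 99 read pairs in limb (ratio 5.34) and 62 in face (ratio 3.50). The bin 600 kb upstream was called in all 4 limb and face libraries, with 16 to 19 read pairs each, and in the pooled midbrain set.

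Limb and face shared most of these partners. Of the Prrx1 bin pairs, 40 of the 50 called in limb were also among the 51 called in face, whereas over all protein-coding genes 45.0% of limb interactions were also called in face. No test was made of this difference, since the bin pairs of 1 gene share an end. Of the 40, 36 were called in no other tissue at E12.5, where they may not have been tested. Of these, 18 were called in at least 1 replicate of both limb and face. At the 40 shared pairs the ratio was higher in limb at 25 and higher in face at 15, with medians of 3.32 and 3.31.

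**Figure D2:**
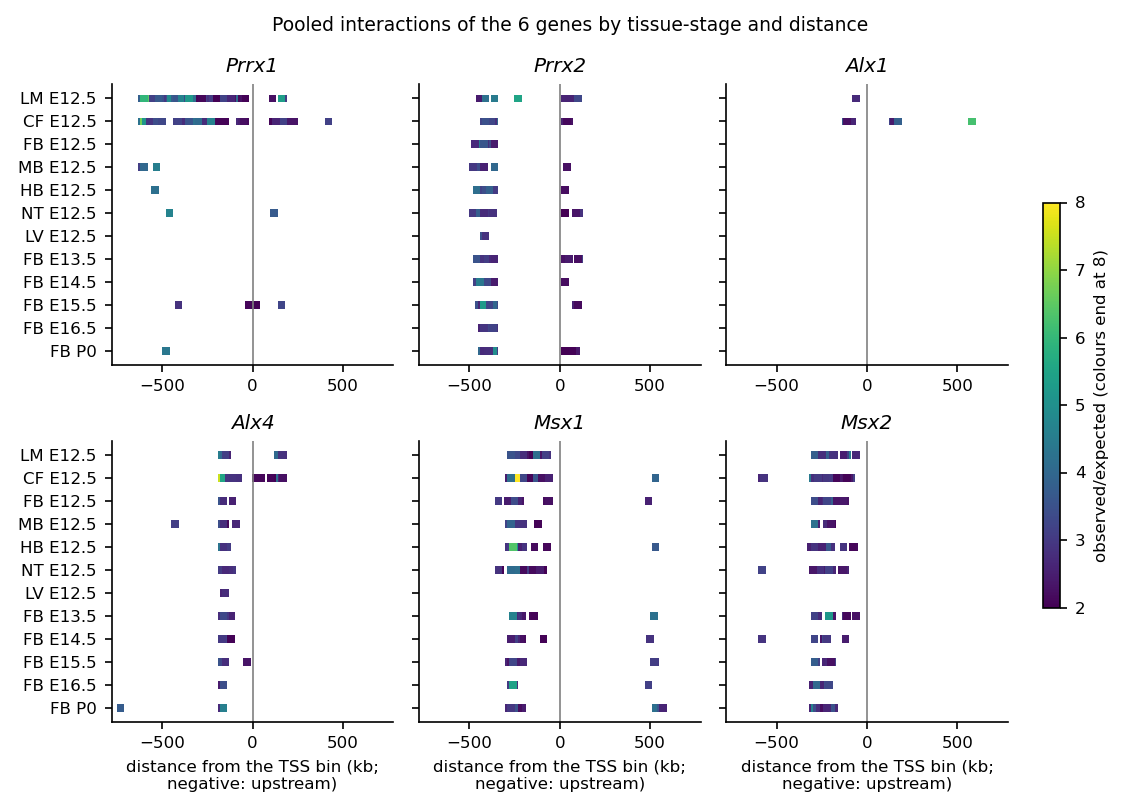
Pooled interactions of the 6 genes (squares) in the 12 tissue–stage combinations (rows), by distance of the partner bin from the TSS bin in kb (x axis, upstream to the left), coloured by the observed/expected ratio up to 8. Prrx1 partners reach 610 kb upstream in limb and face, whereas partners of Msx2 were upstream in every set and those of Alx4 downstream in limb and face alone.

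Prrx2 encodes the paralogous factor PRRX2, and its contacts were spread over all tissues. It spans chr2:30834972-30881251 on the plus strand, with TSSs in 3 bins, the first of which (30830001 to 30840000) also holds the TSS of Asb6 and cannot be separated from it. Pooled numbers were 11 in limb, 13 in face, 7 in forebrain, 6 in midbrain, 11 in hindbrain, 15 in neural tube and 2 in liver. The pooled neural tube set thus exceeded both limb and face, and forebrain at E13.5 reached 18. Limb libraries had 6 and 5 interactions, face libraries 8 and 8, and the other 10 had 1 to 5, a range that touched limb replicate 2.

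After scaling, Prrx2 was higher in limb and face by 1.34 ± 0.29 in log2 (SE, 4 libraries against 10; limma, adjusted p = 0.00390), with mean scaled numbers of 7.89 and 2.55. This call was lost with interactions of a ratio of at least 3 (0.78, adjusted p = 0.0820) and at an FDR below 0.0001 (0.75, adjusted p = 0.182), both with limma. Limb alone and face alone against the other tissues each passed by a small margin, and both calls failed without a replicate of the tissue concerned (limma, adjusted p = 0.324 without limb replicate 1 and 0.202 and 0.183 without face replicates 1 and 2).

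The recurring partner of Prrx2 was the bin of Ier5l, an immediate early response gene, 360 kb upstream at chr2:30470001-30480000. Its other end was the TSS bin shared with Asb6, so that the contact cannot be assigned to Prrx2 alone. The pair was called in 10 of 12 pooled sets and 17 of 24 libraries, with ratios of 4.47 in limb, 3.94 in face and 4.57 in forebrain at E15.5, the highest. A second cluster of partners lay 390 to 480 kb upstream over the TSSs of Ptpa, Crat and Dolpp1, genes of a phosphatase activator, carnitine acetyltransferase and dolichol metabolism. Of the 34 distinct partners, 17 were called in at least 3 pooled sets, and 5 were shared by limb and face (45.5% and 38.5% of their calls). Over all protein-coding genes the shares were 45.0% of limb and 43.4% of face interactions, so that Prrx2 lay near them.

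Alx1, which encodes a factor of the frontonasal mesenchyme, was in contact with distal bins in face. It spans chr10:102998707-103030215 on the minus strand, with TSSs in 2 adjacent bins. The pooled face set held 13 interactions, the limb set 1, and the other 10 sets 0. Face libraries had 12 and 4 interactions, and all other 22 libraries had 0. Both face libraries therefore stood above all others, with a wide gap between them.

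Alx1 was lower in limb than in face by 3.10 ± 0.42 in log2 (SE, 2 libraries each; limma, adjusted p = 0.00059). Since it passed the filter on low numbers through the face libraries alone, limb had to be lower, and without face replicate 1 it was not tested. In limb and face together it was higher by 1.55 ± 0.25 (limma, adjusted p = 0.000514), which came from face, since both limb libraries were at 0. With edgeR's quasi-likelihood test and with DESeq2 the second comparison did not pass (adjusted p = 0.999774 and 0.736), and with DESeq2 neither did the first (adjusted p = 1.0).

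The face calls joined the 2 TSS bins of Alx1 to 7 partner bins, so that they share ends. The bin at chr10:102870001-102880000, 150 to 160 kb downstream, had 59 and 63 read pairs (ratios 3.82 and 4.40) and was called in both replicates from each TSS bin. Upstream, the TSS bin of Lrriq1, a gene for a leucine-rich repeat protein, had 50 read pairs at 110 kb (ratio 3.35). The largest ratio, 6.23, belonged to a bin 580 kb downstream with 22 read pairs and was called in no replicate. The single limb call joined a bin 60 kb upstream with 30 read pairs (ratio 2.72), was called in no replicate, and was not among the face partners. None of the 14 bin pairs was called in a second pooled set.

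Alx4, which acts in frontonasal and anterior limb mesenchyme, combined a contact called in all 12 pooled sets with others found in limb and face. It spans chr2:93642384-93681339 on the plus strand. Pooled numbers were 7 in limb and 19 in face, and 2 to 5 in the other tissues at E12.5. Limb libraries had 2 and 2 interactions, face libraries 13 and 12, and the others 2 each, except liver with 0 and 0. Face stood apart from all other libraries, and limb did not stand apart from the neural tissues.

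Accordingly, Alx4 was lower in limb than in face by 2.05 ± 0.43 in log2 (SE, 2 libraries each; limma, adjusted p = 0.0107), with mean scaled numbers of 2.55 and 13.5, a call lost without limb replicate 2 (adjusted p = 0.0507), without face replicate 1 (adjusted p = 0.0738) and with ratios of at least 3 (-1.04, adjusted p = 0.203). It was also lost with DESeq2 (adjusted p = 0.4525) and with the 4 limb and face libraries fitted alone in limma (adjusted p = 0.0653). Limb against the 5 other tissues gave 0.66 ± 0.33 and did not pass (limma, adjusted p = 0.134), whereas face against them gave 2.71 ± 0.33 (limma, adjusted p = 0.000214). These comparisons share the 10 libraries of the other tissues.

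The most frequent contact joined Alx4 to a pair of bins upstream. The bin 160 kb away, at chr2:93480001-93490000, was called in 12 of 12 pooled sets and 20 of 24 libraries. In liver it rests on the pooled set alone, since neither liver library held the call. The next bin, 170 kb away, was called in 11 sets and 21 libraries, with 20 and 22 read pairs in the limb libraries, 91 and 81 in the face libraries, and 22 to 36 in the libraries of forebrain, midbrain, hindbrain and neural tube at E12.5. The face libraries were thus the highest by read pairs at this bin. The expected number at the same pair was also higher in face, 23.7 read pairs in the pooled set against 8.64 in limb and 13.5 in forebrain, and the ratios were 7.52, 4.51 and 3.57.

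The downstream side of Alx4 differed by tissue. In limb and face 12 of its 26 pooled calls were downstream, against 0 of 35 in the other 10 sets. The partners 140, 160 and 170 kb downstream, within Ext2, which encodes a heparan sulfate polymerase, were called in both limb and face. In limb this rests on the pooled set alone. Of its 7 pooled calls only 2 were called in a limb library, and these were the upstream ones at 160 and 170 kb. The bin at 140 kb had 88 read pairs in face (ratio 4.18) and 30 in limb (ratio 4.04). All 7 limb partners of Alx4 were also face partners, and these were 36.8% of the face partners.

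Msx1 had contacts in every tissue except liver, with more in face. It spans chr5:37820485-37824583 on the minus strand, and its product is a BMP-responsive homeodomain protein. Pooled numbers were 16 in limb, 23 in face, 12 in forebrain, 7 in midbrain, 11 in hindbrain, 14 in neural tube and 0 in liver. Limb libraries had 5 and 13 interactions, face libraries 17 and 19, and the others 0 to 8 with a median of 5. Limb replicate 1 fell inside the range of the neural libraries before scaling and above it after scaling, at 7.98.

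The difference between limb and face and the other tissues was 1.93 ± 0.21 in log2 (SE, 4 libraries against 10; limma, adjusted p = 1.6e-05), with mean scaled numbers of 14.8 and 3.63. Without liver it was 1.45 (limma, adjusted p = 0.000142). Limb was below face by 0.89 ± 0.35, which did not pass the threshold (limma, adjusted p = 0.116), with both limb libraries below both face libraries.

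The partners of Msx1 included a block 210 to 280 kb upstream over Stx18, which encodes a syntaxin of the endoplasmic reticulum. Many limb and face calls lay nearer to the gene, with median distances of 195 kb in limb and 180 kb in face. The bin 260 kb upstream, at chr5:38080001-38090000, was called in 11 of 12 pooled sets and 20 of 24 libraries. In the pooled limb set it had 108 read pairs (ratio 11.5, the largest of any pooled call of the 6 genes), and in the face set 130 (ratio 8.35). By library, limb had 30 and 45 read pairs, face 86 and 76, forebrain 23 and 15, midbrain 37 and 28, hindbrain 38 and 58, neural tube 22 and 36, and liver had no call. Hindbrain replicate 2 thus lay above both limb libraries, and the face libraries lay above all others. The ratios by library were 6.542 and 8.975 in limb and 9.636 and 8.619 in face, so that limb did not lead there. The pooled limb count exceeded those of the limb libraries together, and the reason was not tested.

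The bin at 240 kb was led by face, with 170 read pairs (ratio 9.54) against 50 in limb (ratio 3.82). Bins holding TSSs of Stx18 itself, at 210 and 250 kb, were called in 6 and 9 pooled sets. Limb and face shared 15 partners of Msx1, 93.8% of the limb and 65.2% of the face partners, and all 15 were called in at least 1 other tissue at E12.5. At these the ratio was higher in face at 13 and in limb at 2, with medians of 3.89 and 3.16. Over all pooled sets 109 of 120 calls were upstream.

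Msx2, the paralog of Msx1 that also acts in skull and limb mesenchyme, likewise had most interactions in face and none in liver. It spans chr13:53466884-53473074 on the minus strand. Pooled numbers were 14 in limb, 21 in face, 8 in forebrain, 6 in midbrain, 10 in hindbrain, 15 in neural tube and 0 in liver. Limb libraries had 3 and 8 interactions, face libraries 11 and 6, and the others 0 to 6 with a median of 2. The groups overlapped, since limb replicate 1 was below hindbrain and neural tube libraries.

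Msx2 was higher in limb and face by 1.55 ± 0.29 in log2 (SE, 4 libraries against 10; limma, adjusted p = 0.00144), with mean scaled numbers of 7.72 and 2.29. With a 2-group fit, which put the limb and face libraries in the same group, it narrowly failed (limma, adjusted p = 0.0505). The error then mixed the spread between tissues and between replicates. Limb alone against the others lost its call without limb replicate 1 (adjusted p = 0.0613), without limb replicate 2 (adjusted p = 0.161) and without liver (adjusted p = 0.0627), all with limma. Face alone lost it without face replicate 1 (limma, adjusted p = 0.202).

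All 111 pooled calls of Msx2 were upstream of the gene, at a median of 220 kb. Bins at 210, 220 and 290 kb were each called in 10 of 12 pooled sets, and the first of these, at chr13:53680001-53690000, in 19 of 24 libraries. The largest ratio was 5.29 in limb at 200 kb, with 40 read pairs against 33 in face (ratio 2.97). The farthest partner, at 580 kb, holds the TSS of the dopamine receptor gene Drd1 and was called in 3 pooled sets, with 12 read pairs in face. Limb and face shared 12 partners (85.7% and 57.1%), with the ratio higher in limb at 8 and in face at 4.

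**Figure D3:**
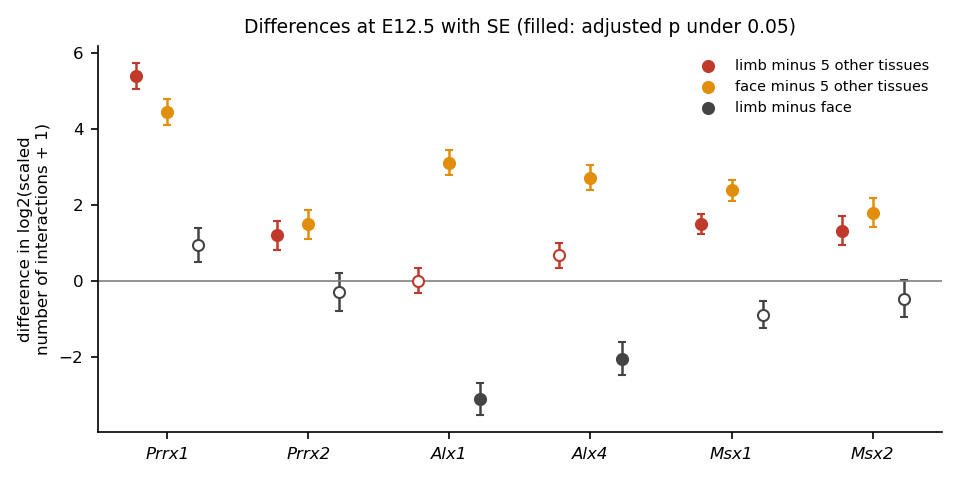
Difference in log2(scaled number + 1) at E12.5 with its SE (y axis) for each gene (x axis): limb against the 5 other tissues, face against the 5 other tissues, and limb against face, filled where the limma adjusted p was under 0.05. Face exceeded the other tissues in all 6 genes, limb did so in 4, and limb was below face for Alx1 and Alx4. Prrx1 and Alx1 were at 0 in the libraries of the other tissues, so that neither could fall below them.

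**Figure D4:**
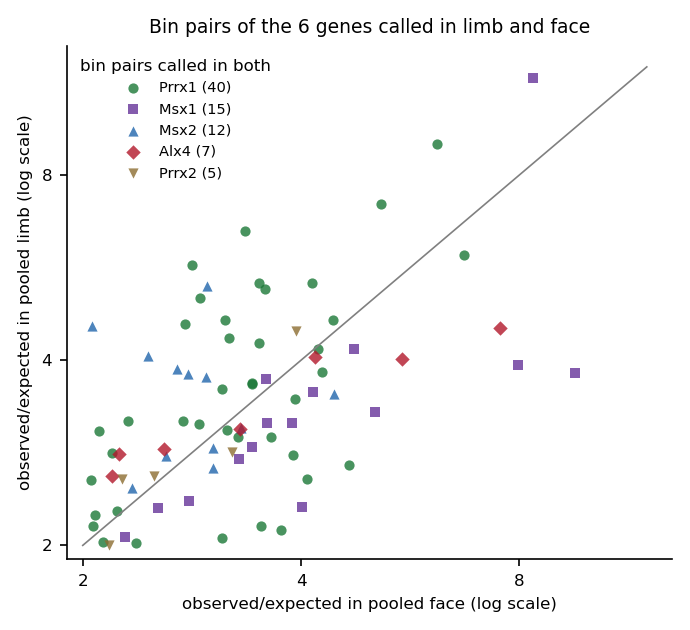
Observed/expected ratio in the pooled limb set (y axis, log scale) against the pooled face set (x axis, log scale) at the bin pairs called in both, by gene, with the line of equal values. Msx1 lay below the line at 13 of 15 pairs and Msx2 above it at 8 of 12, while Prrx1 lay on both sides.

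In limb against face, 139 of 4725 genes (2.94%) were higher and 306 (6.48%) lower in limb, and the 6 genes gave 0 higher and 2 lower (Alx1 and Alx4). The direction of Alx1 was fixed by the filter. Against the 5 other tissues, 656 genes (13.9%) were higher in limb and 249 (5.27%) higher in face, and of the 6 genes 4 and 6 were. These counts include Prrx1 in both and Alx1 in face. Both genes passed the filter through limb and face alone and could not be lower. The lower calls were 831 (17.6%) in limb and 207 (4.38%) in face, with none of the 6 genes among them. The share of higher calls was 31.2% in limb against face (19.2% without scaling), 44.1% in limb against the others (28.2%) and 54.6% in face against the others (37.5%).

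Recurrence of partners set the genes apart from each other. Of the 194 distinct interactions 63 (32.5%) were called in at least 3 pooled sets, against 37.3% of the 180478 interactions of all protein-coding TSS bins. Msx1, Msx2 and Prrx2 held 17, 16 and 17 of the 63, Alx4 7, Prrx1 6 and Alx1 0. Interactions called at E12.5 in both limb and face and in no other tissue numbered 41 (21.1%), against 1.42% of all. Prrx1 alone held 36 of the 41, Alx4 3, and Prrx2 and Msx2 1 each, so that the share without Prrx1 rests on 5 interactions.

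Within forebrain no change of the 6 genes with stage passed the test. In the pooled forebrain sets from E12.5 to P0 Prrx1 had 0, 0, 0, 4, 0 and 1 interactions, Alx1 none, Alx4 3, 4, 4, 4, 2 and 3, Msx1 12, 8, 8, 7, 4 and 10, Msx2 8, 7, 6, 7, 6 and 11, and Prrx2 7, 18, 12, 14, 8 and 12. No gene rose or fell at every step. In late (E16.5 and P0) against early (E12.5 and E13.5) forebrain, 833 of 5832 genes (14.3%) were higher and 476 (8.16%) lower, so that 63.6% of calls were higher, against 98.1% without scaling and 73.8% with TMM scaling. Prrx1 and Alx1 fell below the filter, and Prrx2 (0.26 ± 0.36), Alx4 (-0.35 ± 0.46), Msx1 (-0.39 ± 0.47) and Msx2 (-0.46 ± 0.33) did not pass (log2 difference ± SE, 4 libraries each; limma, adjusted p of 0.329 to 0.637).

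CTCF, the zinc finger protein that halts cohesin at the ends of many loops, was examined at the ends of these interactions. An end counted as bound where its bin held a CTCF peak with a 19-base motif found within 100 bases of the summit. The sites below were picked from partner bins that recurred in many tissues or led a gene's contacts. All but 1 were picked for being bound in all 12 tissue–stages, and the exception, in the Alx4 bin 160 kb upstream that was called in every pooled set, was bound in 6. The sequences are from the GRCm38 assembly, printed 5′ to 3′ on the strand of the motif, with capitals at the motif positions where a single base made up over 80% of the sites used to build it.
Prrx1, 600 kb upstream (chr1:163910528-163910546, minus strand): gagCCactAGatGGCgagc
Prrx1, 160 kb downstream (chr1:163150649-163150667, plus strand): tgtCCaagGGgtGGCagtg
Prrx2, edge of the Ier5l bin (chr2:30469974-30469992, plus strand): ttgGCgctAGggGGAgccg
Alx1, 150 kb downstream (chr10:102878083-102878101, minus strand): tgtCCactGGagGGCgcac
Alx4, 170 kb upstream (chr2:93471426-93471444, minus strand): tggACactAGggGGAggta
Alx4, 170 kb upstream (chr2:93475187-93475205, plus strand): ccaCCacgAGgtGGCgccc
Alx4, 170 kb upstream (chr2:93477741-93477759, minus strand): tgaCCgccAGgtGGCagaa
Alx4, 160 kb upstream (chr2:93489135-93489153, minus strand): tgcCCaggAGggGGCggca
Msx1, 260 kb upstream (chr5:38086226-38086244, minus strand): catTCactAGgtGGCgctc
Msx1, 270 kb upstream (chr5:38091217-38091235, minus strand): tgtCCactAGatGGCagca
Msx2, 210 kb upstream (chr13:53688672-53688690, minus strand): tgaACaccAGagGGCgctg
Msx2, 290 kb upstream (chr13:53765068-53765086, minus strand): ctaCCagtAGagGGCacca

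Of the sites printed, those of Msx1, Msx2, Prrx1 and the Ier5l bin run toward the promoter they contact, as does the plus strand site of Alx4, whereas the other Alx4 sites and the Alx1 site run away from it. The orientation was not uniform within the bins, since those of Msx1 at 270 kb and of Msx2 at 210 and 290 kb also held plus strand sites, which run away from the promoter and were bound in 11, 10 and 2 of the 12 sets. The peak at the third Alx4 site had a fold enrichment over input of 39.8 in limb and 58.9 in face, and 28.6 to 60.2 in the other sets. At the Msx1 site 260 kb upstream it was 25.6 in limb and 32.3 in face, and 16.6 to 55.4 in the others. At the Alx4 site 160 kb upstream it was 6.77 in limb and 6.34 in face.

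Few TSS bins of the 6 genes held a peak with a motif: 3 of 10 in limb and 1 of 10 in face. Among bins with an interaction this was 2 of 8 in limb and 1 of 10 in face, against 44.7% and 45.1% of all protein-coding TSS bins with an interaction. Of the pooled interactions of the 6 genes, 37.4% in limb and 29.3% in face had such a peak at 1 or both ends, and 7 of 99 in limb and 0 of 140 in face at both. Over all protein-coding genes 74.3% and 75.3% of interactions had one at 1 or both ends, and 21.2% and 23.0% at both. Prrx1 had 45 of 50 limb and 44 of 51 face interactions free of such a peak. It made up most of the interactions free of one in limb, but not in face. Of the 7 limb interactions with both ends bound, 5 belonged to Msx1 and rest on a single weak peak in its TSS bin (fold 3.04, listed in limb and in none of the other 11 sets), and 2 belonged to Prrx2.

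The low share depended on the motif. With every listed CTCF peak counted, 85.9% of limb and 73.6% of face interactions of the 6 genes had a peak at an end, against 83.3% and 84.2% for all genes. The change came mostly from Prrx1, whose main TSS bin held a peak without a motif in limb (fold 7.95) and in face (fold 10.8). This peak had its summit 124 bases downstream of the annotated gene start in limb and 119 in face and reached into the promoter printed above. A peak without a motif was also listed there in forebrain at E12.5, at P0 and daily from E14.5 to E16.5 (fold 3.98 to 7.71). The TSS bin of Alx4 likewise held a peak without a motif in limb (fold 3.87) and face (fold 5.43), with its summit 245 and 226 bases downstream of the gene start. For comparison, the median fold of all listed peaks without a motif was 5.01 in limb and 5.43 in face, and that of peaks with one 9.13 and 10.4. The nearest peak with a motif to the Prrx1 promoter lay about 7.5 kb into the gene in the neighbouring bin, with a fold of 14.4 in limb and 8.01 in face.

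**Figure D5:**
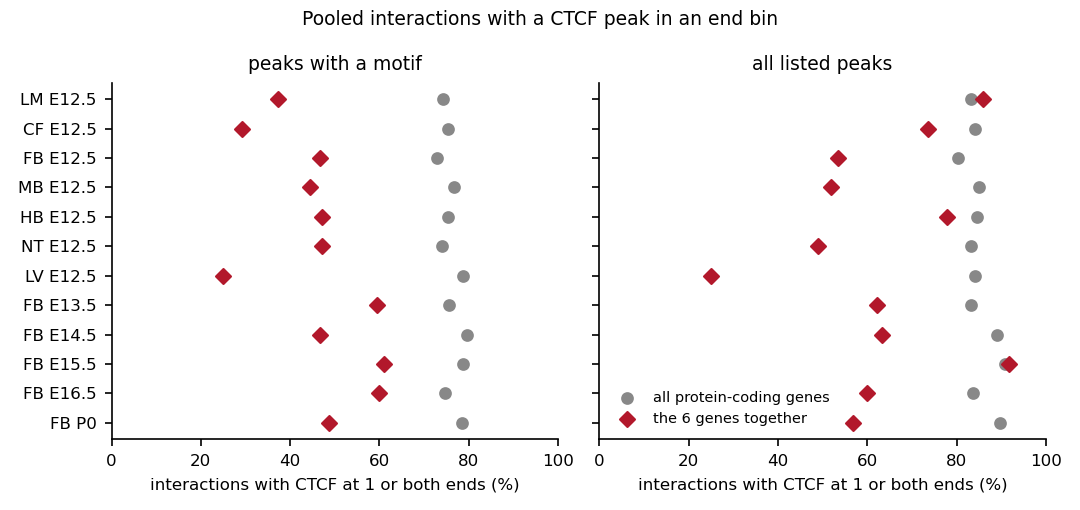
Share of pooled interactions with a CTCF peak in the bin at 1 or both ends (x axis, %) in the 12 tissue–stages (rows), for the 6 genes together and for all protein-coding genes, counting peaks with a motif (left) or all listed peaks (right). With a motif the 6 genes lie at 37.4% in limb and 29.3% in face, below all genes in every row, and with all peaks they reach 85.9% and 73.6%.

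The genes whose pooled numbers followed those of the 6 most closely were sought on other chromosomes over the 12 tissue–stages. Pearson's r on the log2(number + 1) scale is given as a description, since the tissues are few, all genes share the same sets and depth, and the neighbours were chosen from 9276 to 9757 genes. Msx1 and Msx2, on chromosomes 5 and 13, were among each other's 3 nearest (r = 0.975), as were Alx1 and Alx4 (r = 0.889). Nearest to Msx1 were Igfbp5, a gene for an insulin-like growth factor binding protein (r = 0.978), and Ptch1, the hedgehog receptor gene (r = 0.977). Nearest to Msx2 were Bdnf, the neurotrophin gene (r = 0.977), and 3110082I17Rik (r = 0.976). For Prrx1 they were Got1l1 (r = 0.913), Twist1, a basic helix-loop-helix gene of mesenchyme (r = 0.888), and Utp23 (r = 0.887). Alx1 was followed after Alx4 by Pthlh (r = 0.848) and Gnb1 (r = 0.844), and Alx4 by Prkag1 (r = 0.926) and Acp5 (r = 0.889). Prrx2 was nearest to Tamm41 (r = 0.949), Vipr1 (r = 0.942) and Ranbp6 (r = 0.936), and only 0.265 to Prrx1.

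Other genes of limb and face mesenchyme and of its signals were examined as lists. Of 42 transcription factors of limb and face mesenchyme, 40 were tested and 27 were higher in limb and face than in the other tissues, and 1, En1, was lower, with a median log2 difference of 1.06 against -0.08 over all genes. Of the named members, Snai2 and Twist1, genes of mesenchymal transition, differed by 4.19 ± 0.34 and 3.48 ± 0.31, Tbx18 by 2.90 ± 0.29, Twist2 by 2.69 ± 0.25, Six2 by 2.56 ± 0.19 and Hand2, a gene of posterior limb and branchial arch mesenchyme, by 2.52 ± 0.23. All passed the threshold (limma, adjusted p of 1.14e-06 to 8.85e-06). Twist2 was at 0 in the other libraries at E12.5, and Snai2 and Twist1 had at most 2 interactions in any of them. These genes passed the filter on low numbers through limb and face, so that they had to be higher there. They are among the 27. Of 30 genes of BMP, FGF, SHH, WNT and PDGF signalling 23 were tested, 17 were higher and 2, Fgf8 and Wnt7a, lower, with a median of 1.53. Bmp4, a ligand upstream of Msx genes, was higher by 2.80 ± 0.22 (limma, adjusted p = 1.81e-06) and Wnt5a by 2.58 ± 0.17 (limma, adjusted p = 3.48e-07).

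The markers of other cell types moved with this comparison. Of 8 neural markers tested, 7 were lower in limb and face and none higher (median -1.47), including Pax6 by -2.43 ± 0.17 (limma, adjusted p = 5.70e-07) and Sox2 by -1.76 ± 0.16 (limma, adjusted p = 5.39e-06). Of 10 mesenchyme markers, all of them also in the list of transcription factors above, 7 were higher (median 1.30). The 2 liver and red cell markers that could be tested did not pass in either direction. In limb against face, 4 of the 8 neural markers were lower in limb and 0 higher (median -1.87), as were 13 of the 40 mesenchymal factors, with 3 higher (median -0.71). The pooled liver set itself was low in most liver markers, with 0 pooled interactions of Alb and 1 of Afp. The part of cell composition in the differences of the 6 genes was not tested. The paralog Msx3 fell below the filter, with 1 pooled interaction in limb and 4 in face against 1 to 6 in the other tissues at E12.5.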

How the data were processed

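H3K4me3 PLAC-seq and CTCF ChIP-seq of fetal mouse tissues were examined as deposited. For PLAC-seq the authors aligned reads to mm10 with BWA and called interactions with MAPS, a Poisson regression over pairs of 10-kb bins 20 kb to 1 Mb apart on the 19 autosomes. The deposited files give per pair the count of read pairs, the expected number and an FDR, and the authors kept pairs with an FDR below 1% and a ratio of observed to expected of at least 2. The expected read pairs are a background signal modelled by the authors from fragment length, GC content, mappability, enrichment and distance. Replicate sets were used at their own depth (24 libraries), and pooled sets (12) had been downsampled by the authors to equal read pairs. For CTCF the authors deposited MACS2 peaks with a fold enrichment over input.

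TSSs were taken from GENCODE M21. The number of interactions per gene and library was scaled to the median library total, filtered at a mean of 1 and tested with limma 3.58.1 (R 4.3.3) on log2(number + 1), as means of tissues with the spread between replicates as error, with Benjamini-Hochberg adjustment over all genes tested and a threshold of 0.05. The labels call the 2 PLAC-seq samples of a tissue biological replicates, and p-values measure the spread between them. CTCF motifs of 19 bases were learned from 5000 peaks and accepted at a score reached by 0.0001 of random sequence, within 100 bases of a summit, since the motif matrix of the study was not used here. Promoter sequences were from RefSeq GRCm38.p6, which was matched for 4 of the 6 genes.

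The genes named were the 6, the paralog Msx3, the 10 list genes with the smallest p, protein-coding genes with a TSS in a partner bin, and the 3 most similar genes on other chromosomes. Some items are not reported here. The members and lists were chosen with earlier results of these data known. Alternatives were edgeR 4.0.16, DESeq2 1.42.0, other scalings, filters, pseudocounts and call thresholds, a replicate block, and leaving out each replicate.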

Additional observations from a re-analysis of the deposited data

Results flagged for a closer look

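The effect in limb differed from the effect in face for 2 of the 6 genes, and the difference itself was tested as the limb against face contrast. For Alx1 the limb effect minus the face effect was -3.10 in log2(scaled number + 1) (SE 0.42, 2 libraries each; limma, adjusted p = 0.00059), with scaled numbers of 0 and 0 in limb and 13.2 and 4.19 in face. The gene passed the filter on low numbers through the face libraries alone, so that this direction was fixed, and with DESeq2 it was not called (adjusted p = 1.0). For Alx4 it was -2.05 (SE 0.43, 2 libraries each; limma, adjusted p = 0.0107), with scaled numbers of 3.19 and 1.91 in limb and 14.3 and 12.6 in face. This call was lost with DESeq2 (adjusted p = 0.4525), with ratios of at least 3 (limma, adjusted p = 0.203), with a 2-group fit (limma, adjusted p = 0.0653) and without limb replicate 2 or face replicate 1 (limma, adjusted p = 0.0507 and 0.0738). Both genes were lower in both limb libraries than in either face library.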

How the results depend on the processing

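Of 648 values of the 6 genes under the alternatives, 603 stayed on their side of the threshold, 42 were no longer past it and 3 passed it newly. No value past the threshold changed sign, and 12 values past it in neither fit did, 11 of them in late against early forebrain and 1, of Prrx2, in limb against face. With limb and face against the other tissues, 1340 genes were called in all. This became 762 with a mean of at least 3, 664 with edgeR, 315 with DESeq2 and 825 with ratios of at least 3. It was 296 with a 2-group fit, whose error mixes the spread of tissues and replicates. With a replicate left out it was 879 (without limb replicate 1) to 1344. Limb against face gave 445 calls, and 232 with edgeR, 47 with DESeq2, 221 with ratios of at least 3, 121 (without face replicate 1) to 310 with a replicate left out, 139 without limb replicate 1 and 198 without face replicate 2. With 2 groups of 2 libraries alone limma gave 0, with 1096 genes at an unadjusted p under 0.05. Limb against the others gave 1487, and 887 with a mean of at least 3, 790 with edgeR, 339 with DESeq2 and 898 with ratios of at least 3. It gave 294 with a 2-group fit, 539 (without limb replicate 1) to 1529 with a replicate left out, and 913 without limb replicate 2. Face against the others gave 456, and 281, 286, 140, 270 and 20 under the same alternatives in the same order, 96 (without face replicate 1) to 491 with a replicate left out, and 110 without face replicate 2. Late against early forebrain gave 1309, and 2811 without scaling, 253 with DESeq2, 2118 with sums of read pairs and 737 with a 2-group fit. It gave 672 (without P0 replicate 1) to 1379 with a replicate left out, 763 without E16.5 replicate 2 and 772 without P0 replicate 2. The causes were not tested.

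Other changed calls include those of Alx1 in limb and face and in limb against face (adjusted p = 0.0984 and 0.0653 with a 2-group fit in limma) and in face against the others (adjusted p = 0.896 with DESeq2), Msx1 in limb and in face against the others (adjusted p = 0.197 and 0.177 with a 2-group fit in limma), Prrx2 in limb against the others (adjusted p = 0.111 without scaling, 0.0529 with TMM and 0.0679 without a filter in limma, 0.0745 with edgeR and 0.256 with DESeq2), Alx4 in limb against the others, which passed with sums of read pairs (limma, adjusted p = 0.0419), Pax6 and Sox2 (adjusted p = 0.999774 with edgeR for both), Twist2 (adjusted p = 0.0588 with DESeq2) and Msx1 in limb against face, which passed with sums of read pairs (limma, adjusted p = 0.0481). Msx2 also lost its call in limb against the others without scaling and with a 2-group fit (limma, adjusted p = 0.109 and 0.206). With DESeq2 it lost that call as well (adjusted p = 0.141). Its call in face against the others was lost at an FDR below 0.0001 and with a 2-group fit (limma, adjusted p = 0.0707 and 0.290). With the replicate number as a block, 1287, 400, 1451, 434 and 1329 genes were called in the 5 comparisons, and no call of the 6 genes changed. Same-numbered libraries did not deviate together (r of -0.0697 to 0.0404 at E12.5 over 21 pairs of tissues and -0.0371 to 0.0643 over 15 pairs of forebrain stages), so that the numbers do not pair them.

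With ratios of at least 3 the pooled interactions of the 6 genes fell from 99 to 58 in limb, from 140 to 69 in face and from 30 to 14 at the median of the other tissues. Allowing partners within 1 bin, 102 rather than 63 recurred. The share with CTCF at 1 or both ends moved in limb from 37.4% to 85.9% with all listed peaks and 99.0% with neighbouring bins, and in face from 29.3% to 73.6% and 100%. At both ends it moved in limb from 7.07% to 20.2% and 47.5%, and in face from 0 to 12.9%, 42.9% and, with the other deposited peak list, 4.29%. Few read pairs limit the distant contacts, where called pairs held as few as 11 for Prrx1.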
